A study of Mus musculus with 48 samples.

Results

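Sync-TRAP was used to separate RNA bound to tagged ribosomes from the total RNA of wild type (WT) mouse cerebellum at postnatal day 12, and 51 genes differed between the pull-down and its input in the authors' deposited table. All genes of that table were taken, out of 6143 genes listed in any of the 4 gene tables of the series. They were chosen by the authors' test of the same contrast, at an adjusted p under 0.05, so that their differences are given as a description and no further test of them is independent. The comparison used 3 pull-down libraries (IP, described in the labels as ribosome-bound RNA) and 3 input libraries, all of genotype WT, from cerebella taken 6 days after electroporation. The labels give no strain, no construct or promoter for the ribosome tag, no cell type that took up the DNA, and no number of animals per library. Where replicates are compared, limma p-values measure only the spread between these libraries, which may be technical. The authors' p-values may also draw on libraries outside this comparison.

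Translating ribosome affinity purification recovers cytosolic ribosomes that carry a tagged ribosomal protein, together with the messenger RNA they hold, from the cells that express the tag. The input is the RNA of the whole tissue before the pull-down. Electroporation of the young cerebellum delivers DNA to cells at the surface, where the precursors of granule neurons divide before they migrate inward. Granule neurons are the small glutamatergic cells that make up most of the cerebellum, and their axons, the parallel fibres, contact Purkinje cells. RNAs that stay in the nucleus, and RNAs made inside mitochondria and read by mitochondrial ribosomes, are not normally substrates of cytosolic ribosomes.

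About 26200 features had been tested, so the listed genes were 0.195% of them: 30 (0.115%) were higher in the pull-down and 21 (0.0802%) were lower. Every higher gene is annotated as protein coding in the deposited table. Of the lower ones 15 are annotated as protein coding, 2 as mitochondrial ribosomal RNA, 2 as miscellaneous RNA, 1 as a long intergenic noncoding RNA and 1 as a ribozyme. Levels are log2 CPM, reads scaled to the depth of the library, and differences are pull-down minus input in log2 CPM ± SE from limma, with n = 3 libraries per group. The lowest level, -3.71, is the value of 0 reads. In 50 of the 51 genes the pull-down and input libraries did not overlap, which is a property of genes chosen for differing. At an adjusted p under 0.05, with all 26200 features counted in the adjustment, limma on the listed genes called 0 higher and 3 lower (0.0% and 0.0115% of the features), and 50 of the 51 had an unadjusted p under 0.05. Limma was fitted to these 51 genes only, so no other feature could be called. Its variance estimates thus drew on genes chosen for differing.

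Effective depth, read from the steps between low values, was 25.2 M, 26.8 M and 27.1 M reads in pull-downs 1 to 3 and 36.0 M, 21.9 M and 26.8 M reads in inputs 1 to 3. In the higher genes the pull-downs varied more than the inputs: the SD between pull-downs was above that between inputs in 27 of 30, with a median of 0.54 against 0.25. Over all 21 lower genes it was above in 10. Among the 14 lower genes with more than 10 reads over the pull-downs it was above in 10, with a median of 0.89 against 0.30. Only genes chosen by this same contrast have values, and 1 extreme pull-down can help a gene to be chosen. These counts therefore describe the listed genes and not the libraries as a whole. Pull-down 1 held 710, 788 and 1381 reads of the Y-linked genes Ddx3y, Uty and Kdm5d, and pull-downs 2 and 3 held between 0 and 2, so that the pull-downs differed in the sex of the mice. Those genes have no value for the inputs in the tables used here.

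The most abundant RNAs that differed were the mitochondrial ribosomal RNAs and Malat1, all lower in the pull-down. The large and small ribosomal RNAs of the mitochondrion, mt-Rnr2 and mt-Rnr1, and Malat1, a nuclear speckle RNA, together held 8.76%, 7.96% and 8.85% of the effective reads of inputs 1 to 3. In pull-downs 1 to 3 they held 2.08%, 2.38% and 0.694%. Each pull-down was thus below each input, and pull-down 3 was the lowest.

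**Figure D1:**
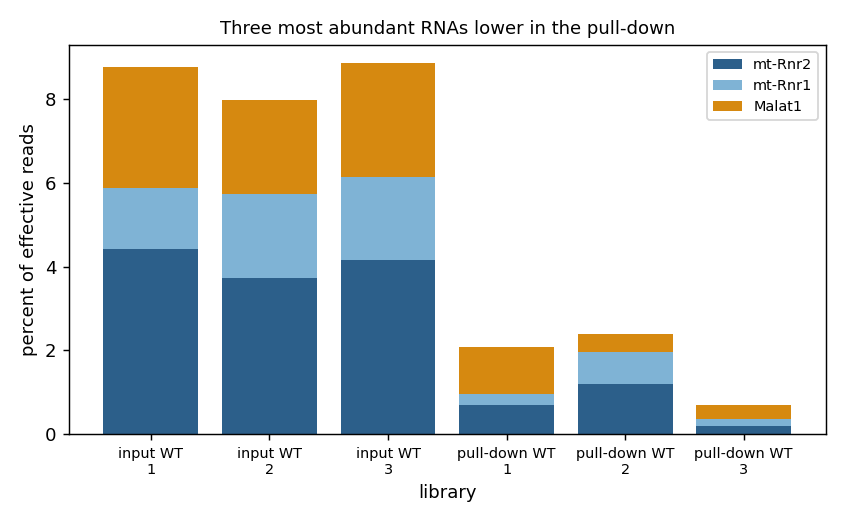
Stacked bars give the percent of effective reads (y axis) taken by mt-Rnr2, mt-Rnr1 and Malat1 in each of the 3 input and 3 pull-down libraries (x axis). The inputs stand between 7.96% and 8.85%, and the pull-downs between 0.694% and 2.38%.

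Mitochondrially encoded genes were lower in the pull-down wherever they were listed. Of 15 such genes (13 proteins and both ribosomal RNAs), 5 fell in the authors' test, none rose and 10 are not listed, with a median difference of -2.05 where the median over all listed genes was 0.87. mt-Rnr2 was 15.43, 15.19 and 15.34 log2 CPM in inputs 1 to 3 and 12.76, 13.56 and 11.02 in pull-downs 1 to 3, a difference of -2.87 ± 0.61 (adjusted p = 2.31e-08 in the authors' deposited table) that was -2.16 without pull-down 3. mt-Rnr1 was 13.84, 14.29 and 14.27 in the inputs and 11.42, 12.89 and 10.52 in the pull-downs, a difference of -2.52 ± 0.58 that was -3.16 without pull-down 2. Pull-down 2 was the highest of the pull-downs in both RNAs, and it stayed below every input.

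Messenger RNAs of the respiratory chain made in mitochondria followed in the same order of libraries. mt-Co1, the catalytic subunit of cytochrome c oxidase, was 9.47, 9.74 and 9.16 in the inputs and 7.59, 8.49 and 6.13 in the pull-downs (-2.05 ± 0.58, and -1.42 without pull-down 3). mt-Cytb, cytochrome b of complex III, differed by -2.03 ± 0.34, from 9.33 ± 0.10 to 7.30 ± 0.48 (mean ± SD). mt-Nd5, a subunit of complex I, differed by -1.54 ± 0.38, from 8.63 ± 0.34 to 7.09 ± 0.54. In all 5 genes pull-down 2 was the highest pull-down and pull-down 3 the lowest. No nuclear gene of the respiratory chain is listed, and neither is any gene of the cytosolic ribosome or any of 18 translation factors. Because mitochondrial sequences also have copies in the nuclear genome, how reads were assigned to these genes is uncertain.

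Noncoding RNAs of nuclear genes formed the second group of lower RNAs. On the list of 14 small nuclear and signal recognition RNAs 2 fell, none rose and 12 are not listed, and of 16 nuclear-retained long noncoding RNAs 2 fell, none rose and 14 are not listed. Rn7sk, the 7SK RNA that holds the elongation factor P-TEFb inactive, was 7.88, 9.20 and 9.08 in the inputs and 4.60, 5.09 and 5.04 in the pull-downs. Its difference of -3.81 ± 0.43 had the smallest adjusted p in the authors' deposited table (8.95e-18). Its highest pull-down lay 2.79 below its lowest input. Limma gave it an adjusted p of 0.0917, which was 0.0157 without pull-down 2 and ranged from 0.000179 to 1 over all alternatives. With libraries centred on the median listed gene it was 0.0239. The library medians of the listed genes were 7.18 to 7.41 in the inputs and 7.66 to 8.43 in the pull-downs. Centring thus widened each lower difference, that of Rn7sk from -3.81 to -4.46.

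Rpph1, the RNA component of ribonuclease P, was 5.55, 5.41 and 6.02 in the inputs and 2.96, 1.89 and 3.60 in the pull-downs (-2.84 ± 0.48). Gm23624, annotated as miscellaneous RNA, was 4.74, 7.15 and 6.94 in the inputs and 1.59, 2.28 and 3.79 in the pull-downs. For Gm23624 input 1 was low among the inputs, and without it the difference moved from -3.73 to -4.49, and without pull-down 3 to -4.34. Reads of Rn7sk can also come from its many copies in the genome, so that its level is uncertain.

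Malat1 was 14.82, 14.44 and 14.73 in the inputs and 13.45, 12.01 and 11.73 in the pull-downs, a difference of -2.27 ± 0.48 (adjusted p = 4.98e-10 in the authors' deposited table). Snhg11, a host gene of small nucleolar RNAs that the deposited table annotates as protein coding, was 8.36, 7.66 and 7.59 in the inputs and 6.56, 5.34 and 4.71 in the pull-downs (-2.33 ± 0.51). For both, pull-down 1 was the highest pull-down, unlike the mitochondrial RNAs. RefSeq start windows were found for 2 of the 5 noncoding members, and they are shown here as the identity of the RNAs. Lower case gives the 30 bases before the annotated start and capitals the first 50 bases of the RNA, on build GRCm38.p6, at chr19:5802623-5802702 on the minus strand for Malat1 and chr2:158375683-158375762 on the plus strand for Snhg11.
Malat1: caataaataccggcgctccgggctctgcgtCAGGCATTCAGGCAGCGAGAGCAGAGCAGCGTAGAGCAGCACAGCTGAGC
Snhg11: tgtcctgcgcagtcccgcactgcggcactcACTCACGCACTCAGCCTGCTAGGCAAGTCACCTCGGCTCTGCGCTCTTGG

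Hopx, Apmap, Fam21 and Sltm were lower coding genes of the nucleus with more than 10 reads over the pull-downs. Snhg11 and the 3 mitochondrial messenger RNAs above also had more than 10. Apmap was low among them, with 38, 33 and 36 reads in pull-downs 1 to 3. Hopx, a homeodomain-only protein gene of Bergmann glia and astrocytes, was 7.23, 6.88 and 6.91 in the inputs and 5.48, 4.93 and 3.91 in the pull-downs, 4.69-fold lower (-2.23 ± 0.44, adjusted p = 3.87e-06 in the authors' deposited table). It was the listed member of the 16 astrocyte and Bergmann glia markers, and the other 15 have no value here. In a pull-down set against its input, fewer tagged cells of a type and less ribosome-bound RNA per cell cannot be told apart. Apmap, an adipocyte plasma membrane associated protein gene, was 3.42, 3.45 and 3.98 in the inputs and 0.66, 0.39 and 0.49 in the pull-downs, which lay close together (SD 0.14).

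Fam21, a subunit gene of the WASH complex of endosomes (Washc2 in RefSeq), was 8.68, 8.64 and 8.40 in the inputs and 7.57, 7.44 and 5.61 in the pull-downs. Its difference of -1.70 ± 0.54 was -1.07 without pull-down 3. Sltm, a modulator of transcription related to the scaffold attachment factors, differed by -1.52 ± 0.32, with pull-downs at 5.20, 5.57 and 5.13 and inputs at 6.94, 6.46 and 7.08.

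A last set of 7 coding genes was low in the inputs and had next to no reads in the pull-downs. Nupr1, a stress-induced nuclear protein gene, had 52, 40 and 54 reads in inputs 1 to 3 and none in any pull-down. Cstad had 73, 106 and 32 input reads, Apoc1, an apolipoprotein gene, 37, 21 and 53, Wnt9a, a secreted Wnt ligand, 22, 39 and 44, and Gatsl3, an arginine sensor of the mTORC1 pathway (Castor1 in RefSeq), 19, 15 and 36. With 0 reads in each pull-down, all of these 5 genes have a lower bound only. Counting 3 reads over the 3 pull-downs as the floor, Cstad was at least 65.6-fold lower, Nupr1 45.4-fold, Apoc1 34.5-fold, Wnt9a 32.7-fold and Gatsl3 21.8-fold.

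Cd180, a receptor gene related to the Toll-like receptors of immune cells, had 245, 77 and 80 reads in the inputs and 1, 2 and 1 in the pull-downs, a ratio of 93.8 (exact 95% interval 36.4 to 346, counting error only). Crabp1, which encodes a retinoic acid binding protein, had 30, 19 and 72 input reads and 2 reads in the pull-downs, both in pull-down 3, a ratio of 56.5 (15.3 to 472). Between libraries of the inputs the reads of Cd180 and Crabp1 also differed, input 1 being high for Cd180 and input 3 for Crabp1. The 3 genes that passed limma were Nupr1, Cd180 and Apoc1, with adjusted p of 0.0129, 0.025 and 0.0405. Nupr1 and Apoc1 had 0 reads in every pull-down, so their SD between pull-downs was 0. Their log2 differences, and that of Cd180, depend on the level set for 0 reads. None of the 3 genes passed with a pseudocount of 1 CPM, or when pull-down 1, pull-down 3 or any 1 input was left out (0 lower genes). Without pull-down 2, 9 lower genes passed: these 3 with mt-Rnr1, Apmap, Gatsl3, Rn7sk, Wnt9a and Cstad. Without the 7 genes of this set limma passed none.

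**Figure D2:**
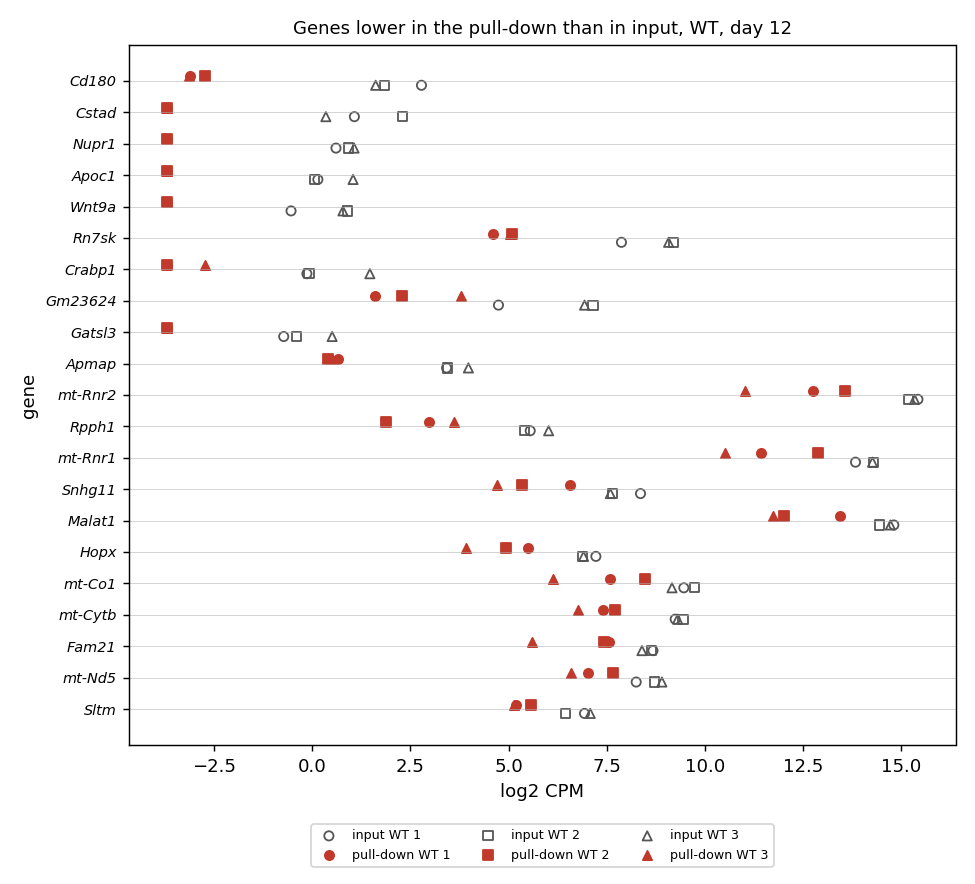
Points give log2 CPM (x axis) of the 21 genes (y axis) that were lower in the pull-down, with grey open symbols for the 3 inputs and red filled symbols for the 3 pull-downs. No pull-down reaches an input in any gene, and 5 genes sit at the level of 0 reads, -3.71, in all pull-downs.

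The higher genes differed less than the lower ones: their median difference was 1.20, against -2.87 for the lower genes. The lower genes include those near 0 reads, and for the 14 with more than 10 reads over the pull-downs the median was -2.30. Gm10800, a predicted gene, had the largest difference and the widest spread. It was -2.64, -3.03 and -2.15 in the inputs, close to the level of 0 reads, and -0.20, 6.05 and 1.87 in the pull-downs. Without pull-down 2 its difference of 5.18 ± 1.38 became 3.44, and without pull-down 1 it became 6.57.

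Atg7 and Ubr3, of a group of protein turnover genes, had the next largest differences, while the median of that group was 1.31. This group and the following groups of higher genes were formed by known function after the listing was seen. Their share among all features tested was not counted, so group sizes are a description and no measure of enrichment. Atg7, the activating enzyme of autophagy, was 5.05, 4.98 and 4.78 in the inputs and 10.24, 7.10 and 8.96 in the pull-downs, 14.2-fold higher (3.83 ± 0.72, adjusted p = 1.08e-15 in the authors' deposited table). The pull-downs spread far more than the inputs (SD 1.58 against 0.14), and the difference was 4.67 without pull-down 2 and 3.09 without pull-down 1. Ubr3, a ubiquitin ligase gene of the UBR family, was 8.27, 8.12 and 8.16 in the inputs and 11.85, 10.60 and 10.70 in the pull-downs, 7.29-fold higher (2.87 ± 0.40). Its smallest pull-down value stood 2.33 above its largest input value. Atg7 and Ubr3 were the only higher genes that limma passed in the fit without pull-down 2.

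Ubr4 is a giant ligase of the Ubr3 family. It was 7.68, 7.51 and 7.52 in the inputs and 8.44, 8.31 and 9.28 in the pull-downs, 2.16-fold higher, and was the listed member of 11 large ubiquitin ligase genes. Trim62, a RING finger ligase gene, differed by 1.09 ± 0.35, and Neurl1b, a ligase that acts on ligands of Notch, by 1.31 ± 0.37. Ubr4 had the largest adjusted p among the higher genes in the authors' deposited table, 0.0467, just inside the limit.

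Chromatin and transcription genes made up 11 of the 30 higher genes, a count with no share over all features to set beside it. On the list of 47 chromatin regulators 3 rose in the authors' test, none fell and 44 are not listed. Kdm6b, a demethylase of histone H3 lysine 27, was 6.61, 7.27 and 7.20 in the inputs and 8.77, 8.72 and 11.53 in the pull-downs, 6.25-fold higher (2.64 ± 0.74). Pull-down 3 was far above the other pull-downs, and the difference was 1.71 without it. Arid1b, a subunit of the BAF remodeling complex, was 6.12, 6.09 and 6.15 in the inputs and 8.92, 7.31 and 8.03 in the pull-downs (1.97 ± 0.44). Smarca4, the ATPase of the same complex, differed by 0.92 ± 0.37, with inputs at 7.04, 7.32 and 7.61 and pull-downs at 7.66, 8.39 and 8.68. The lowest pull-down of Smarca4 was only 0.05 above its highest input.

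Outside the list, Gse1 was 5.72, 6.23 and 6.45 in the inputs and 6.88, 7.91 and 9.78 in the pull-downs. Its difference of 2.06 ± 0.69 was 1.27 without pull-down 3 and 2.72 without pull-down 1. Tnrc18 was 4.63, 5.02 and 4.96 in the inputs and 6.20, 6.12 and 7.91 in the pull-downs (1.88 ± 0.51). Supt6, a histone chaperone of transcribing RNA polymerase II, was 7.38, 7.08 and 7.66 in the inputs and 8.95, 8.32 and 9.48 in the pull-downs (1.55 ± 0.39). Both thus had every pull-down above every input.

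The remaining genes of this group had smaller differences. Mllt6, a partner of the histone methyltransferase Dot1l, differed by 1.08 ± 0.40 and Phf8, a histone demethylase, by 1.03 ± 0.33. Among transcription factors and cofactors the zinc finger gene Zfp385b differed by 1.21 ± 0.34, Mef2d, an activity-responsive factor of neurons, by 0.82 ± 0.30, and the coactivator gene Zmiz1 by 0.74 ± 0.30. Pull-down 3 was the highest pull-down in 8 of the 11 genes.

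Genes of RNA splicing and processing numbered 6, all with their highest pull-down value in pull-down 3. On the list of 46 splicing factors 3 rose, none fell and 43 are not listed. Sf3b1, which encodes the branch point subunit of the U2 particle, was 7.45, 7.18 and 7.67 in the inputs and 9.31, 8.22 and 10.40 in the pull-downs (1.88 ± 0.54, adjusted p = 4.92e-07 in the authors' deposited table). The serine and arginine rich matrix genes Srrm1 and Srrm2 differed by 1.16 ± 0.38 and 1.03 ± 0.30. Srrm2 had the narrowest pull-down spread of the group, with 10.36, 10.12 and 10.46 against 9.51, 9.05 and 9.29 in the inputs.

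Ddx46, the helicase gene that acts with Sf3b1, was 6.59, 6.40 and 7.07 in the inputs and 8.58, 7.07 and 9.12 in the pull-downs (1.57 ± 0.54). Pull-down 2 stood only 0.01 above input 3, and the difference was 2.16 without pull-down 2. Arglu1, a gene of splicing and transcription, was 5.33, 5.98 and 6.33 in the inputs and 7.81, 5.49 and 8.86 in the pull-downs. It was the 1 gene of 51 whose groups overlapped, since pull-down 2 lay below inputs 2 and 3. Its difference of 1.51 ± 0.80 became 2.45 without pull-down 2 and 0.77 without pull-down 3. Bclaf1, an RNA-processing and transcription gene, differed by 1.27 ± 0.47.

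Neuronal genes of synapses and neurites numbered 7 and had the smallest differences and, with a median SD of 0.26 between pull-downs, the closest replicates of the 4 groups of higher genes. Slc17a7, the vesicular glutamate transporter VGLUT1 of granule neurons, was 6.81, 6.48 and 6.13 in the inputs and 7.66, 7.52 and 7.82 in the pull-downs, 2.29-fold higher (1.19 ± 0.32). It was the listed member of 20 granule neuron markers. Its pull-downs had the smallest SD of the higher genes, 0.15. Grm4, the metabotropic glutamate receptor of parallel fibre terminals, was 8.13, 7.87 and 7.60 in the inputs and 10.06, 9.32 and 8.47 in the pull-downs, 2.67-fold higher (1.42 ± 0.45).

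Dlg4, the postsynaptic scaffold gene PSD-95, was 7.91, 8.10 and 8.04 in the inputs and 8.39, 9.17 and 8.86 in the pull-downs, and was the listed member of 27 synaptic genes. Cyfip2, of the WAVE actin complex, had the smallest difference of the table, 0.73 ± 0.30, from 9.47, 9.26 and 9.12 to 9.95, 10.30 and 9.79. Cadm3, a synaptic adhesion molecule gene, differed by 0.87 ± 0.29 and Nmnat2, an axon survival enzyme gene, by 0.89 ± 0.30. Phyhip differed by 1.16 ± 0.45, and its pull-down 2, at 8.57, was only 0.07 above its highest input.

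**Figure D3:**
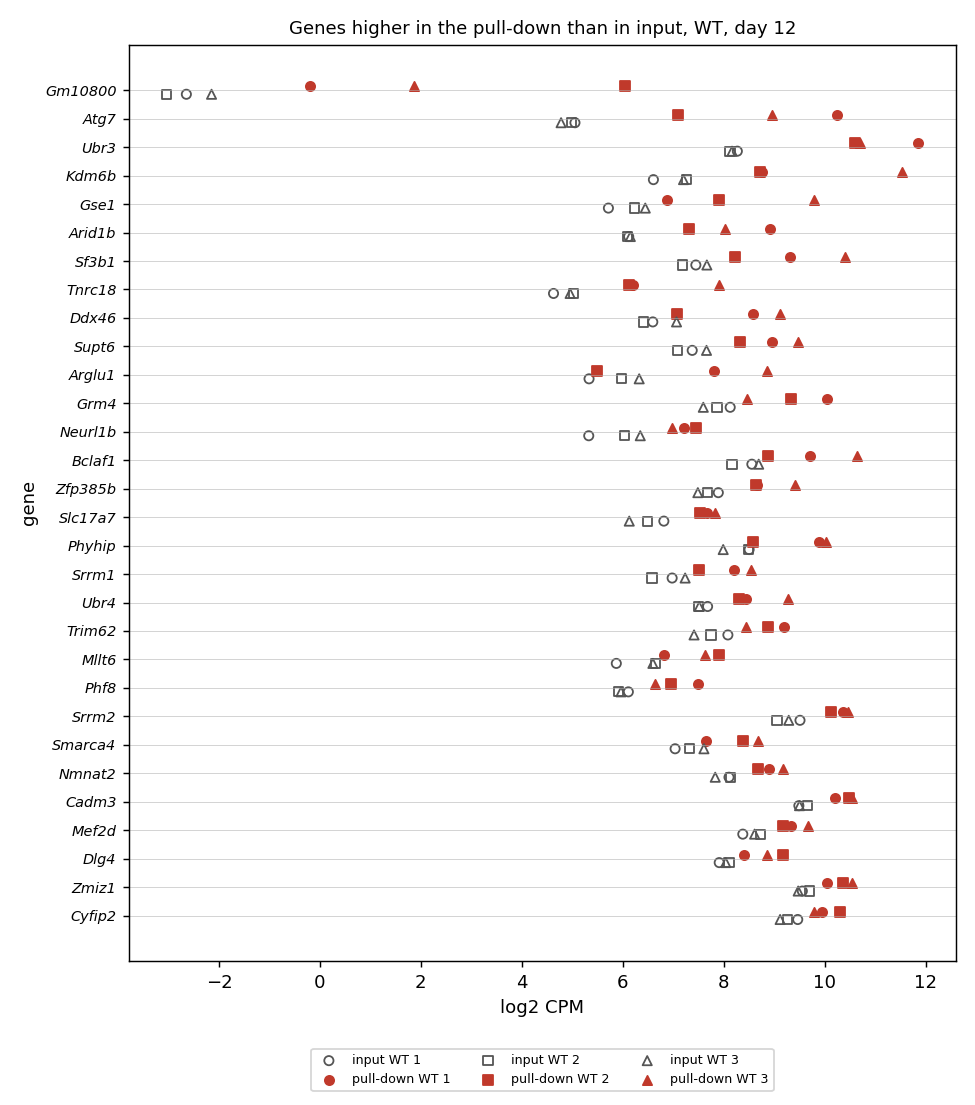
Points give log2 CPM (x axis) of the 30 genes (y axis) that were higher in the pull-down, with grey open symbols for the 3 inputs and red filled symbols for the 3 pull-downs. Pull-downs spread widely in Gm10800, Atg7, Kdm6b and Arglu1 and lie close together in Slc17a7 and Srrm2, and Arglu1 is the gene whose groups overlap.

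The pull-down libraries departed from their mean in a pattern that differed between these groups. Pull-down 3 was highest in 19 of the 30 higher genes and lowest in 5. Among the 14 lower genes with more than 10 reads over the pull-downs it was highest in 2 and lowest in 10. This was set out after the values were seen, and it was not tested.

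**Figure D4:**
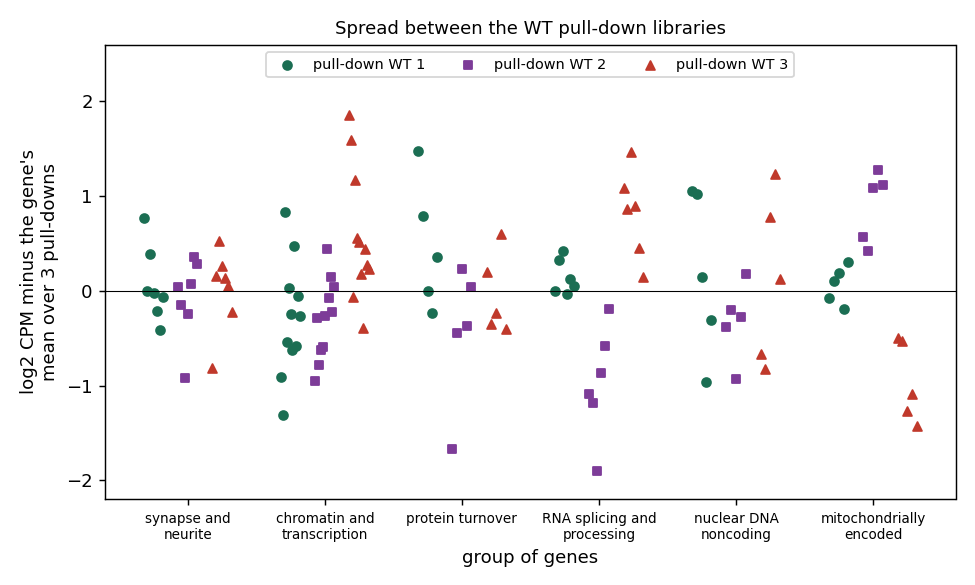
Points give, for each gene of 6 groups (x axis), the log2 CPM of a pull-down library minus the mean of the gene over the 3 pull-downs (y axis). Pull-down 3 lies above the mean in all 6 splicing and processing genes and below it in all 5 mitochondrially encoded genes, where pull-down 2 lies above it.

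Markers of other cell types were nearly absent from the listing, as were most genes. Over 10 lists of cell types other than granule neurons, with 131 entries, the 1 listed was Hopx. No list of Purkinje cells, interneurons, unipolar brush cells, oligodendrocytes, microglia, vessels, meninges, choroid plexus or blood had a listed member. The lists were written with earlier results of these data known, and they do not hold every gene of a cell type. Cd180, the immune receptor gene above, is on none of them and had 402 reads over the inputs against 4 over the pull-downs. A gene that is not listed has no level here, so this does not show that its RNA was equal in both fractions. Itpr1, a Purkinje cell marker listed in the other Sync-TRAP comparison, had 18923, 23156 and 13886 reads in WT pull-downs 1 to 3, so its RNA was present in each of them. Its input level is not given in the tables used here. No progenitor or cell cycle gene of 19, no gene of early neuronal differentiation of 19, no activity-regulated gene of 31 and no large cytoskeletal or motor gene of 20 was listed.

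The members were then looked up in comparisons made with other libraries. Messenger RNA of whole cerebellum at postnatal days 27 to 28 was compared between 4 libraries of mice with a conditional knockout of Chd4 (cKO), an ATPase of nucleosome remodeling, and 4 libraries of WT mice. There, 14 of the 51 genes were listed (27.5%), where 20.3% of all features tested were. Of the 30 genes higher in the pull-down 7 were listed, 1 higher and 6 lower in cKO, and of the 21 lower genes 7 were listed, 4 higher and 3 lower, where 11.0% and 9.29% of all features were higher and lower.

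Wnt9a had the largest change among them, 5.14-fold higher in cKO (2.36 ± 0.10, limma adjusted over all features tested), with WT libraries 1 to 4 at 0.55, 0.37, 0.63 and 0.70 log2 CPM and cKO libraries 1 to 4 at 2.91, 2.77, 2.86 and 3.17. Neurl1b was 4.36-fold higher (2.12 ± 0.14), Nupr1 2.53-fold (1.34 ± 0.13) and Snhg11 2.22-fold (1.15 ± 0.08). Phyhip, Smarca4, Cadm3 and Mef2d, all higher in the pull-down, fell by 0.46, 0.32, 0.30 and 0.28 on the log2 scale in cKO, and Sltm, lower in the pull-down, fell by 0.22. These 9 genes passed limma. It was fitted only to genes that the authors had listed in the same cKO and WT libraries, so passing is no independent support. Tnrc18, Grm4, Fam21, mt-Cytb and Rpph1 were listed with differences of -0.26, -0.23, -0.15, -0.26 and 0.52 that did not pass limma.

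After rotarod training, compared with rest in 4 and 4 libraries of WT mice of the same age, 3 of the 51 genes were listed (5.88%), against 3.38% of all features tested. Gse1 and Ubr4 were higher by 0.27 ± 0.08 and 0.35 ± 0.12, and Cd180 differed by -0.95 ± 0.20. None of them passed limma (adjusted p of 0.298, 0.587 and 0.099). Cd180 lay between 0.05 and 0.90 log2 CPM in the rest libraries and between -0.65 and -0.03 after training, low levels in both groups. The rest and training libraries did not overlap for Cd180 or Gse1, and did for Ubr4. Lack of overlap is a property of genes chosen for differing in these same libraries, and limma was fitted only to such genes.

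The other Sync-TRAP comparison, of cKO with WT pull-downs at day 12, uses the same 3 WT pull-down libraries, so the values are given side by side only. It lists 6 of the members, all lower in WT pull-down than in input, where 0.147% of all features are listed, 0.116% higher and 0.031% lower in cKO. Apmap had 38, 33 and 36 reads in WT pull-downs 1 to 3 and 262, 376 and 293 in cKO pull-downs 1 to 3. The cKO pull-downs of Apmap, at 3.52, 3.99 and 3.60 log2 CPM, lay at the level of the WT inputs, 3.42, 3.45 and 3.98.

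Wnt9a, at 0 reads in the WT pull-downs, had 87, 25 and 138 reads in cKO pull-downs 1 to 3, and Cd180 had 59, 233 and 758. The cKO libraries did not act as one for either gene, nor for the genes that follow. Nupr1 had 85, 88 and 3 reads, Gatsl3 5, 15 and 680, and Crabp1 3, 0 and 2683. For Gatsl3 and Crabp1 nearly all reads of cKO were in pull-down 3.

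**Figure D5:**
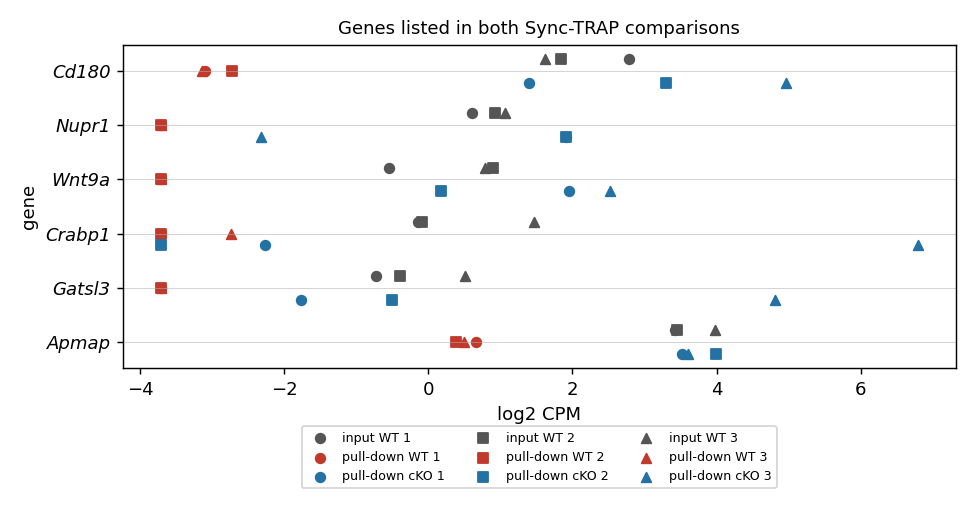
Points give log2 CPM (x axis) of the 6 genes (y axis) listed in both Sync-TRAP comparisons, in grey for WT inputs, red for WT pull-downs and blue for cKO pull-downs, 3 libraries each. WT pull-downs lie below every WT input, Apmap in cKO pull-down sits at the WT input level, and Crabp1 and Gatsl3 are high in cKO pull-down 3.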

How the data were processed

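The authors deposited log2 CPM per library, with a prior count that sets the level of 0 reads, and their own log2 fold change, likelihood ratio score, p-value and adjusted p-value per gene, per the file headers. Bowtie, edgeR and build mm9 are named in the submitters' processing notes; their versions, the counting step and any filter were not given in these sources. Ribosome-bound RNA was amplified with the Ovation kit, per the labels' protocols. Mean log2 CPM was equal in both Sync-TRAP comparisons for the 6 genes they share, and the 0-read level is the same in both. For Crabp1 this mean was 3.87, above its highest level in the 6 WT libraries compared here, 1.47. The authors' means thus covered more libraries than these, and their p-values may draw on the spread of those too.

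Features tested were read from adjusted p times rank over p. Low values minus the 0-read level were whole reads (all values under 200 reads, 7 to 16 per WT library, within 0.1 read), which gave depth and reads. Only listed genes have values, so no count model was run. Limma 3.58.1 (R 4.3.3) was fitted to the listed log2 values and tested on simulated data. Fold bounds used 3 reads over a group, and ratio intervals (95%, exact binomial, scipy 1.17.1) cover counting error only. Genes matched RefSeq names for 49 of 51. The members and all 30 gene lists, of which 12 hold a member, were chosen with earlier results of these data known. Values in every library are given for the 12 genes at either end of the deposited fold changes, and listed members of gene lists are named. Functional groups were formed after the listing was seen. Alternatives were thresholds, a minimum fold, abundance, pseudocounts, a trend, centring, a replicate block and libraries left out.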

Additional observations from a re-analysis of the deposited data

How the results depend on the processing

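No difference changed direction under any alternative run; all 51 genes entered each but 2, which held 26 (genes at or above the median level) and 44 (without genes near 0 reads). Of the genes the authors listed, 15 higher and 14 lower genes held at an adjusted p under 0.01, 25 higher and 21 lower at an absolute log2 fold change of at least 1, 13 higher and 11 lower under Bonferroni adjustment, and 19 higher and 7 lower among genes at or above the median level. Limma passed 0 higher and 3 lower genes. It passed 0 lower genes with a pseudocount of 1 or 5 CPM, among genes at or above the median level and without the genes near 0 reads (an alternative chosen after seeing the data), 6 lower with a mean-variance trend, 9 lower when libraries were centred on the median listed gene, and 29 higher and 21 lower when adjusted over the listed genes alone. The median listed gene was higher in the pull-downs, so centring widened each lower difference by construction. Why the other counts changed was not tested. Leaving out a library, or a number in both groups, gave 0 to 4 higher and 0 to 12 lower genes, the largest counts being without number 2, and 50 to 51 genes whose groups did not overlap. Libraries of the same number had deviations from their group means that correlated at 0.394, -6.44e-04 and 0.344 across genes. Of the pull-downs, 2 of 3 correlated best with the input of their number. Deviations from a mean of 3 libraries depend on one another, and the genes were chosen for differing. These correlations therefore cannot decide whether libraries are paired by number. No source states that a pull-down was made from the input of its number, and the main fit was therefore unpaired. With the replicate block limma passed 0 higher and 6 lower genes, the 3 others being Crabp1, Cstad and Rn7sk (adjusted p 0.0413 for Rn7sk).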
